A study of Mus musculus with 6 samples.

Results

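The counts of 9 mouse genes that encode the giant and M-band filament proteins of the sarcomere and some of their close associates were examined, out of 43629 genes listed in the deposited tables. The genes were chosen by name as Ttn, Obsl1, Neb, Nebl, Nexn, Myom1, Myom2, Myom3 and Mybpc3, and each matched 1 Ensembl identifier. RNA-Seq was done on primary cells from the heart ventricles of CD-1 mouse embryos at embryonic day 13.5. The ventricles of a litter were pooled, and after 48 h in culture and transfection the cells were sorted magnetically for the surface protein VCAM1. The 3 negative siRNA cultures received a control siRNA and the 3 DNMT1 siRNA cultures a mixture of siRNAs against Dnmt1, each at 12 nM for 72 h. No strain, age, sort or culture condition was stated to differ between the groups. The labels do not say whether the 3 cultures of a group came from separate litters, so p-values measure the spread between these samples only.

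The sarcomere is the repeating contractile unit of the myofibril, bounded by Z-discs, with the myosin filaments crosslinked at its middle in the M-band. Titin, encoded by Ttn, is anchored in the Z-disc and reaches the M-band, and it acts as a molecular spring and as a scaffold for the thick filament. The myomesins, encoded by Myom1, Myom2 and Myom3, link titin to myosin at the M-band, where the obscurin-like protein of Obsl1 also binds. Cardiac myosin-binding protein C, encoded by Mybpc3, lies along the thick filament and modulates crossbridge cycling. Nebulin (Neb) runs along the thin filament of skeletal muscle, its shorter relative nebulette (Nebl) is the main form of the heart Z-disc, and nexilin (Nexn) binds actin filaments.

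The targeted gene was examined first. Dnmt1, the maintenance DNA methyltransferase, had 3028 ± 367 normalized counts (SD, n = 3) with negative siRNA and 741 ± 65.8 with DNMT1 siRNA, so that its log2 fold change (log2FC) was -2.03 (adjusted p = 0.000192). For these 3 samples the labels' treatment field reads DNMT3a instead, and the titles, which say DNMT1, were followed. The log2 fold change of Dnmt3a was 0.24 (adjusted p = 0.0919). Values after ± are SDs over the 3 cultures of a group. Normalized counts are counts divided by the effective library size (TMM) relative to its geometric mean. All fold changes are of DNMT1 siRNA over negative siRNA, from the quasi-likelihood test of edgeR, and adjusted p-values (Benjamini-Hochberg) cover the 15470 genes tested. A gene was called higher or lower where the adjusted p was below 0.05 and the change exceeded 1.5-fold.

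Reads on genes ranged from 27852412 to 35896018 in the negative siRNA libraries and from 13739561 to 16186310 in the DNMT1 siRNA libraries. Of the reads counted on genes, on no annotated exon or as ambiguous, those on no annotated exon made up 14.6% to 17.5% with negative siRNA and 24.4% to 31.95% with DNMT1 siRNA. The part of depth and of these reads in the results was not tested. The labelled cell type was checked with marker lists. The 11 cardiomyocyte markers summed to between 2020 and 2610 CPM (counts per 1000000 effective reads) with negative siRNA and to between 4350 and 5540 CPM with DNMT1 siRNA, and 8 of the 11 were called higher. Their log2 fold changes ranged from -0.18 (Tnni1) to 1.6 (Ryr2). The 8 fibroblast and mesenchyme markers, led by Col1a1, summed to between 36100 and 55700 CPM and to between 27400 and 29200 CPM, and 3 of the 8 were called lower. The summed level of the fibroblast list was thus above that of the cardiomyocyte list in every library, although the cells are labelled as cardiomyocytes. Sums over lists of unlike genes do not give cell proportions. The study cites its earlier flow cytometry, in which nearly all magnetically sorted cells were cardiomyocytes. It also reports that, by staining of cultures, knockdown did not change the percentage of cardiomyocytes. The 5 epicardial markers summed to between 1540 and 1830 CPM over all libraries, the 5 smooth muscle markers to between 5130 and 7810 CPM with negative siRNA and to between 4390 and 4580 CPM with DNMT1 siRNA. The 7 endothelial markers went from between 62.5 and 105 CPM to between 99.9 and 118 CPM, with 2 called higher. The 5 macrophage markers stayed at or below 30.0 CPM (1 called lower) and the 5 erythroid markers at or below 2.62 CPM. In these bulk samples more cardiomyocytes and more muscle mRNA per cardiomyocyte cannot be told apart, and this applies to every rise described here. The plot of summed marker levels shows these ranges.

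**Figure D1:**
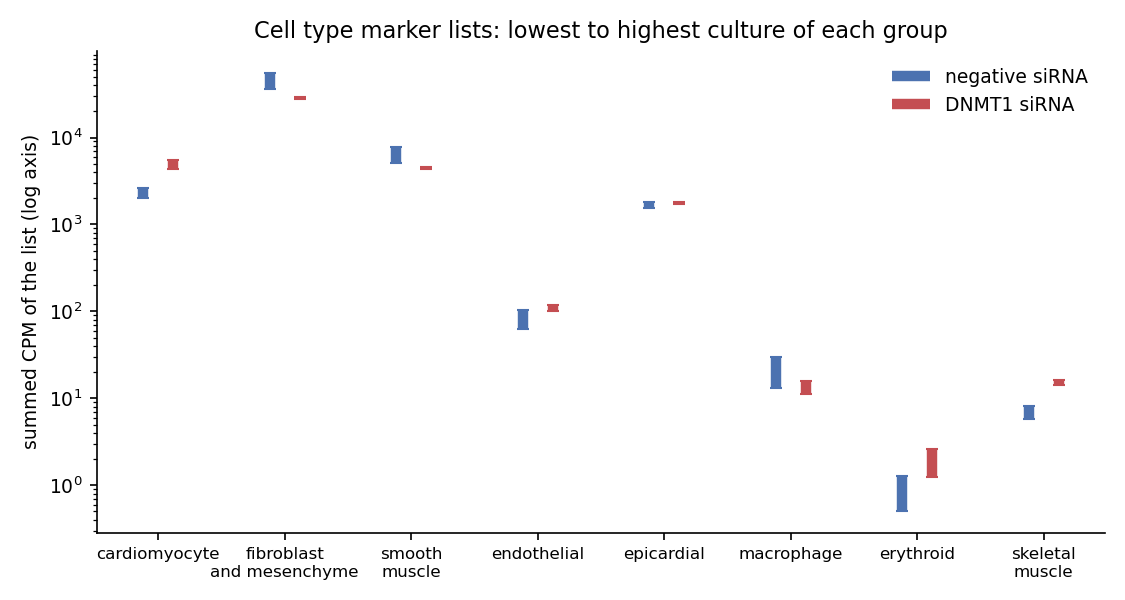
Summed CPM (log axis) of 8 cell type marker lists, with a bar from the lowest to the highest of the 3 cultures of each group. The cardiomyocyte bars lie at 2020 to 2610 CPM with negative siRNA and at 4350 to 5540 CPM with DNMT1 siRNA, while the fibroblast and mesenchyme bars are higher in both groups and lower with DNMT1 siRNA.

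Of the 9 genes, 8 passed the filter on low counts and 5 were called higher with DNMT1 siRNA (Ttn, Mybpc3, Myom2, Nebl and Myom1), while none was called lower. Over all tested genes, 4.26% were called higher and 2.23% lower, 6.49% in all. Obsl1, Neb and Nexn did not pass the limits, and Myom3 did not pass the filter. The 8 log2 fold changes were all above 0, from 0.13 (Nexn) to 1.98 (Ttn), with a median of 1.14 beside a median of 0.00 over all tested genes. In 7 of the 8 genes every DNMT1 siRNA culture was above every negative siRNA culture, as in 18.3% of all tested genes (36.0% were apart in either direction). Together the 9 genes took 0.0812% ± 0.0111 of the reads on genes in the negative siRNA cultures and 0.186% ± 0.0178 in the DNMT1 siRNA cultures.

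**Figure D2:**
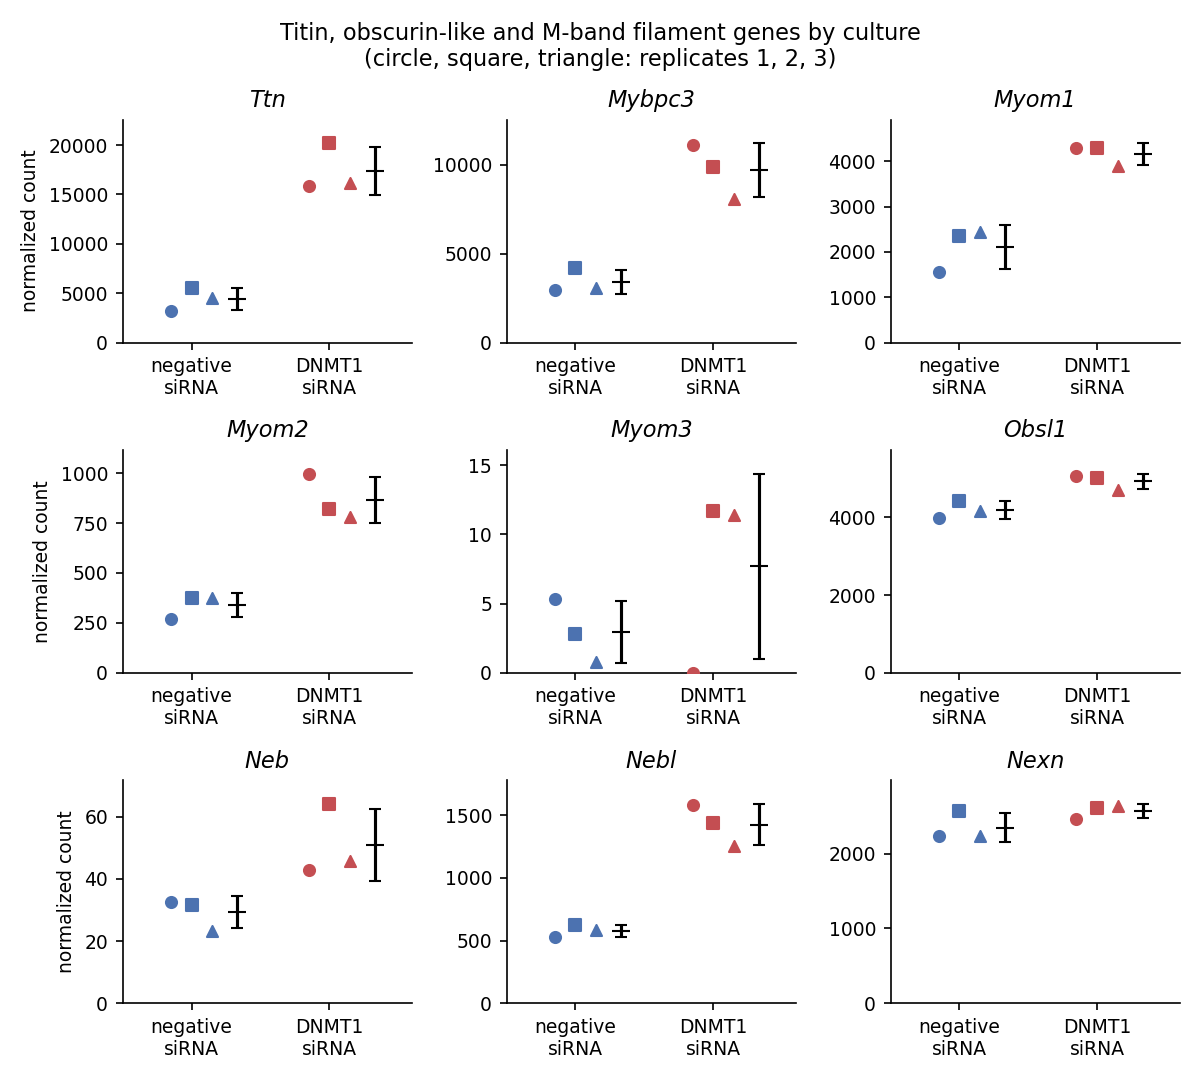
Normalized counts of the 9 genes in each culture (blue, negative siRNA; red, DNMT1 siRNA; circle, square and triangle for replicates 1, 2 and 3), with the mean and SD (n = 3) in black and each axis starting at 0. The groups are apart in every panel except Nexn and Myom3, where Myom3 is at 0 in DNMT1 siRNA replicate 1.

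Titin mRNA changed most of the 8. Ttn (ENSMUSG00000051747, GRCm38 chromosome 2, 76703980 to 76982547, minus strand) had 3209, 5499 and 4525 normalized counts in negative siRNA replicates 1, 2 and 3 and 15807, 20156 and 16191 in DNMT1 siRNA replicates 1, 2 and 3. The lowest DNMT1 siRNA culture was thus 2.87 times the highest negative siRNA culture. Its mean rose from 4411 ± 1149 to 17385 ± 2408 (n = 3 each), giving a log2FC of 1.98 (SE 0.19, 95% confidence interval (CI) 1.54 to 2.41, adjusted p = 0.00118). The share of Ttn among the reads of the 9 genes went from 25.0% ± 2.97 to 42.2% ± 3.71 (SD, n = 3 each). By the size of its increase Ttn ranked 90 among all tested genes, and 5 of the genes with a larger increase were more abundant.

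The change of Ttn was also set beside that of other long genes. The merged exons of Ttn cover 116.83 kb, the second longest of all tested genes with an annotated length. The median log2 fold change was -0.05 in the 2962 genes with less than 2 kb of merged exon and 0.19 in the 107 genes with 20 kb or more, of which 12.1% were called higher. With the trend on length removed from each sample, the log2 fold change of Ttn was 1.51 (adjusted p = 0.00712, and at most 0.0116 in the other alternatives). The short and long titin isoforms share 1 gene and cannot be told apart in gene counts. Gm13938, an antisense gene that shares 453 exon bases with Ttn, had 0 counts in all 6 samples.

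Mybpc3 (ENSMUSG00000002100, chromosome 2, 91118144 to 91136516, plus strand) followed. It had 2972, 4193 and 3099 normalized counts in the negative siRNA cultures and 11094, 9903 and 8107 in the DNMT1 siRNA cultures, without overlap. The mean rose from 3421 ± 671 to 9701 ± 1503 (n = 3 each), giving a log2FC of 1.504 (SE 0.16, 95% CI 1.14 to 1.86, adjusted p = 0.00153). This gene is short, with 4.16 kb of merged exon, and removal of the length trend left its log2 fold change at 1.51.

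The start regions of 4 of these genes are shown because DNMT1 copies methylation at CpG dinucleotides. They were picked with the fold changes known, as 3 of the genes rose together while Obsl1 did not pass the limits. Their CpG numbers are thus a description and do not compare genes that rose with others. RefSeq promoter windows (GRCm38.p6) matched 6 of the 9 genes. Each window holds 250 bases before and 50 bases after a transcription start, and the 250 bases before the start are printed 5′ to 3′ on the gene's strand, with CpG in capitals. The regions are chr2:76982548-76982797 (minus strand) for Ttn, chr2:91117894-91118143 (plus strand) for Mybpc3, chr17:71019307-71019556 (plus strand) for Myom1 and chr1:75506453-75506702 (minus strand) for Obsl1.
Ttn: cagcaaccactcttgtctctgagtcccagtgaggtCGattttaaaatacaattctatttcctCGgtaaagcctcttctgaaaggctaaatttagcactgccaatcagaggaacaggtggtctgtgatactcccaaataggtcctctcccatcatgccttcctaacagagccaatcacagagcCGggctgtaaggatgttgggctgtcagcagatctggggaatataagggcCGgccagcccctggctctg
Mybpc3: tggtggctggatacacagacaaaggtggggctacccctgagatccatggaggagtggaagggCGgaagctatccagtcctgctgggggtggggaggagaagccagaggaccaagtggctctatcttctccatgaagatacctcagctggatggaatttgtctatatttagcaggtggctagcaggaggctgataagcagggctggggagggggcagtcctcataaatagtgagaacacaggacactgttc
Myom1: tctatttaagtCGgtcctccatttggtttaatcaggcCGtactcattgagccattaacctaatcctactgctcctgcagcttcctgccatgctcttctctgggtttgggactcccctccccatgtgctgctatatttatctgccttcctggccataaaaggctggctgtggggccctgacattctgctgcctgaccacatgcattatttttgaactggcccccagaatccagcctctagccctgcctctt
Obsl1: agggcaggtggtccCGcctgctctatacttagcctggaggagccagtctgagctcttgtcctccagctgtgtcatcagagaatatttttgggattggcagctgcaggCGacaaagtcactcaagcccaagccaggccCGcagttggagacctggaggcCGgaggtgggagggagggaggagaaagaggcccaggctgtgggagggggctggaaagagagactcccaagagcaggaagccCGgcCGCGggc
These 250 bases held 4 CpG in Ttn, 1 in Mybpc3, 2 in Myom1 and 7 in Obsl1. In the full windows of 300 bases the numbers were 8, 1, 2 and 8, while the median over 32807 promoter windows was 7. Of these 4 windows that of Mybpc3 held the fewest CpG and those of Ttn and Obsl1 the most, and methylation was not measured in these files. The Myom1 window lies inside the annotated gene, downstream of its first annotated start.

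The same windows were searched on both strands for muscle gene motifs. Matches to the MEF2 motif, the binding sequence of the myocyte enhancer factors, were found in Ttn (CTAAATTTAG, positions -166 to -157 from the start), in Mybpc3 (CTATATTTAG, -90 to -81) and in Myom3 (CTATATTTAA, -35 to -26). Of all 32807 windows, 3.19% held a MEF2 match. Myom1 and the Nebl window with a start at 17462856 each held a CArG motif of serum response factor, found in 1.63% of all windows (CCATAAAAGG in Myom1 and CCTAAATTGG in Nebl). The GATA motif AGATAA matched in Myom1 and in 2 of the 4 Nebl windows, beside 11.2% of all windows. CATTCC, the M-CAT motif, matched once in Ttn and once in Nebl (14.7% of all windows). TATAAA matched in none of the 9 windows (13.6%). These matches describe letters in the windows and do not show that a factor is bound. The Nebl windows, which were not printed although Nebl also rose, ranged from 1 to 32 CpG. At none of the 4 Nebl starts, nor at that of Myom1, did the sequence match the beginning of an annotated transcript. All 4 Nebl starts (17731134, 17670165, 17526130 and 17462856) lie inside the Nebl gene, which spans 17343909 to 17731464 on the minus strand. The motifs in these windows therefore need not lie in a promoter.

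Among the myomesins, which crosslink myosin filaments at the M-band, Myom1 was the most abundant and Myom2 changed most. Myom1 (ENSMUSG00000024049, chromosome 17, 71002633 to 71126856, plus strand) had 1557, 2353 and 2436 normalized counts with negative siRNA and 4292, 4300 and 3891 with DNMT1 siRNA. The negative siRNA cultures were more spread than the DNMT1 siRNA cultures, with replicate 1 the lowest. Its mean rose from 2115 ± 485 to 4161 ± 234 (n = 3 each), giving a log2FC of 0.98 (SE 0.16, 95% CI 0.62 to 1.33, adjusted p = 0.00747). In the fits that each left out 1 culture its adjusted p went up to 0.0482. Myom1 shares 207 exon bases, 1.98% of its merged exon length, with Myl12a on the opposite strand, and reads there cannot be told apart without strand information. Myl12a had more counts than Myom1 in every sample, with 19130, 15789 and 13534 raw counts with negative siRNA and 8906, 8033 and 7155 with DNMT1 siRNA. The part of the shared bases in the Myom1 counts was not tested.

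Myom2 (ENSMUSG00000031461, chromosome 8, 15057653 to 15133541, plus strand), the myomesin typical of fast-contracting and adult muscle, had 268, 377 and 373 normalized counts with negative siRNA and 996, 822 and 778 with DNMT1 siRNA. The lowest DNMT1 siRNA culture was 2.06 times the highest negative siRNA culture. The mean rose from 339.6 ± 61.7 to 866 ± 115 (n = 3 each), giving a log2FC of 1.35 (SE 0.15, 95% CI 1.00 to 1.70, adjusted p = 0.00199). The other myomesin gene was Myom3 (ENSMUSG00000037139, chromosome 4, 135759715 to 135815564, plus strand). It had raw counts of 9, 4 and 1 with negative siRNA and of 0, 8 and 7 with DNMT1 siRNA. It was near the limit of detection and did not pass the filter, and without the filter its log2FC was 1.23 (SE 0.74, adjusted p = 0.374). The count of 0 in DNMT1 siRNA replicate 1 allows up to 3 counts, or 4.02 normalized counts, by counting error alone.

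The balance between the myomesins was compared per merged exon length, where library size cancels. Myom2 stood at 20.4%, 18.9% and 18.1% of the Myom1 level in the negative siRNA cultures and at 27.4%, 22.6% and 23.7% in the DNMT1 siRNA cultures. All 3 DNMT1 siRNA cultures were above the negative siRNA cultures, a difference of 0.36 in the log2 ratio (exact permutation test, two-sided, p = 0.1, the smallest p that 3 against 3 allow; 0.3 after adjustment over 3 ratios). For Myom3 to Myom1 the log2 ratio differed by -0.22 (exact permutation test, p = 0.8, adjusted p = 0.8) but the difference was 0.50 without negative siRNA replicate 1 and 1.20 without DNMT1 siRNA replicate 1. The design cannot reach a p below 0.05 for any of these ratios.

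Obsl1, whose protein binds titin and myomesin at the M-band, moved little. Obsl1 (ENSMUSG00000026211, chromosome 1, 75479310 to 75506452, minus strand) had 3973, 4431 and 4154 normalized counts with negative siRNA and 5067, 5011 and 4713 with DNMT1 siRNA. The groups did not overlap, but the lowest DNMT1 siRNA culture was only 1.06 times the highest negative siRNA culture. The means were 4186 ± 230.5 and 4931 ± 190.2 (SD, n = 3 each), and the log2 fold change was 0.24 (SE 0.07, 95% CI 0.08 to 0.39, adjusted p = 0.0592). A change of 1.5-fold, 0.585 on the log2 scale, lay outside this interval.

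Of the nebulin relatives, the cardiac form rose and the skeletal form was scarce. Nebl (ENSMUSG00000053702, chromosome 2, 17343909 to 17731464, minus strand) had 525, 625 and 582 normalized counts with negative siRNA and 1581, 1439 and 1254 with DNMT1 siRNA, without overlap. The mean rose from 577 ± 50.2 to 1425 ± 164 (n = 3 each), giving a log2FC of 1.30 (SE 0.11, 95% CI 1.06 to 1.55, adjusted p = 0.00076), the lowest adjusted p of the 8 genes. The gene also gives rise to a LIM-domain form that is not limited to muscle, and the forms were counted together. Neb (ENSMUSG00000026950, chromosome 2, 52136647 to 52378474, minus strand) had raw counts of 56, 46 and 30 with negative siRNA and of 32, 44 and 28 with DNMT1 siRNA.

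As normalized counts, Neb was at 33, 32 and 23 with negative siRNA and at 43, 64 and 46 with DNMT1 siRNA. The groups were apart, but the log2 fold change of 0.79 had a wide interval (SE 0.26, 95% CI 0.20 to 1.39) and its adjusted p of 0.0848 missed the limit. The counts behind Neb were thus low, and the depth limits what can be said of it. Myod1, Myog, Myf5 and Myf6, the regulators that define skeletal muscle cells, had at most 3 counts in every library. The 9 skeletal muscle markers, these regulators included, summed to between 5.80 and 8.25 CPM with negative siRNA and to between 14.3 and 16.3 CPM with DNMT1 siRNA, but only 2 of the 9 passed the filter. Myh1, a fast myosin heavy chain with 172, 215 and 153 counts against 233, 185 and 192, made up most of the sum and was called higher. Tnnt3, the fast skeletal troponin T, had 23, 24 and 24 counts against 10, 8 and 5 (log2FC -0.52, adjusted p = 0.343). Per merged exon length, Neb stood at 3.60%, 2.94% and 2.34% of Nebl with negative siRNA and at 1.58%, 2.58% and 2.13% with DNMT1 siRNA, and these ranges overlapped (difference in log2 ratio -0.50, exact permutation test, p = 0.2, adjusted p = 0.3).

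Nexn (ENSMUSG00000039103, chromosome 3, 152236982 to 152266350, minus strand), whose actin-binding product is not confined to muscle, changed least. It had 2234, 2573 and 2235 normalized counts with negative siRNA and 2465, 2603 and 2640 with DNMT1 siRNA. Negative siRNA replicate 2 lay above DNMT1 siRNA replicate 1, so the groups overlapped. The log2 fold change was 0.13 (SE 0.08, 95% CI -0.05 to 0.31, adjusted p = 0.303), and a 1.5-fold change lay outside the interval.

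**Figure D3:**
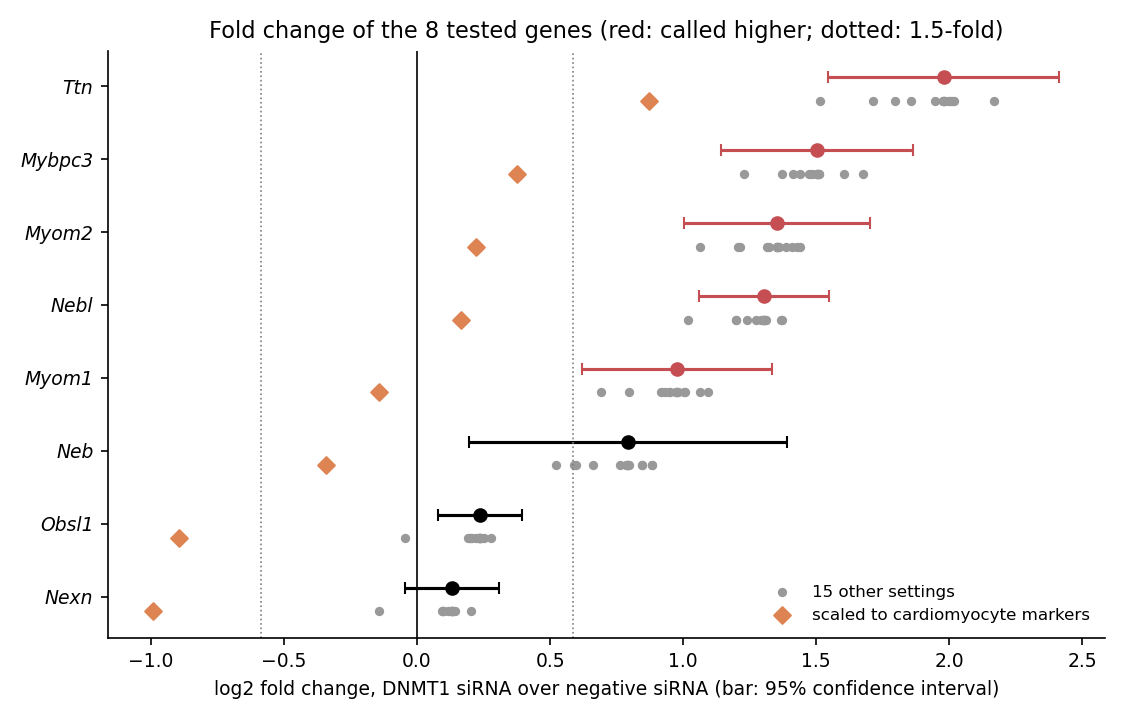
Log2 fold change of the 8 tested genes with its 95% CI (red, called higher; black, not called), and below each the values under 15 other settings (grey) and after scaling to 11 cardiomyocyte markers (orange diamonds). Grey points stay near the main value, with Ttn between 1.51 and 2.17, while the diamonds are shifted to the left and only that of Ttn stays above the dotted line at 1.5-fold.

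The rise of the cardiomyocyte markers was set beside that of these genes by scaling each library to the summed counts of the 11 markers. This alternative was chosen after the data were seen, and it moves the median log2 fold change of all tested genes to -1.14. Relative to the markers, Ttn was still called higher, with a log2 fold change of 0.87 (edgeR quasi-likelihood test, adjusted p = 9.6e-05). Mybpc3 (0.37), Myom2 (0.22) and Nebl (0.17) were above 0 and no longer called, and Myom1 was at -0.14 (adjusted p from 0.0661 to 0.475 in these 4). Obsl1 (-0.90) and Nexn (-0.99) were called lower on that scale, as were 13306 of all 15470 tested genes. Neb stood at -0.34. The increase of Myom1, Nebl, Myom2 and Mybpc3 was therefore not distinguished from that of the marker sum, in which Myh6 and Tnnt2 have the most counts. When the sum of Actc1, Tnnt2 and Tpm1 was used, the median of all genes moved to -0.29, the same number of 5 genes was called higher, and Obsl1 (-0.05) and Nexn (-0.14) turned below 0.

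Levels were also ranked as reads per 1000000 effective reads and per kb of merged exon. In every culture the order began with Mybpc3, Nexn, Obsl1 and Myom1. With negative siRNA these stood at 37.9 ± 7.42, 28.3 ± 2.36, 22.8 ± 1.25 and 9.31 ± 2.14 (SD, n = 3 each). Myom2 at 1.77 ± 0.321, Nebl at 1.75 ± 0.152 and Ttn at 1.74 ± 0.453 did not differ beyond their spread, and their order changed from culture to culture. With DNMT1 siRNA Mybpc3 was at 107 ± 16.6, Nexn at 30.9 ± 1.11, Obsl1 at 26.8 ± 1.03 and Myom1 at 18.3 ± 1.03. Ttn then stood at 6.85 ± 0.949, above Myom2 at 4.50 ± 0.6 and Nebl at 4.31 ± 0.495 in all 3 cultures, and the latter pair again did not differ beyond its spread. Neb and Myom3 were at or below 0.111 in all 6 samples. These levels assume that every annotated exon is transcribed, so they are lower limits for genes with many alternative exons such as Ttn.

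**Figure D4:**
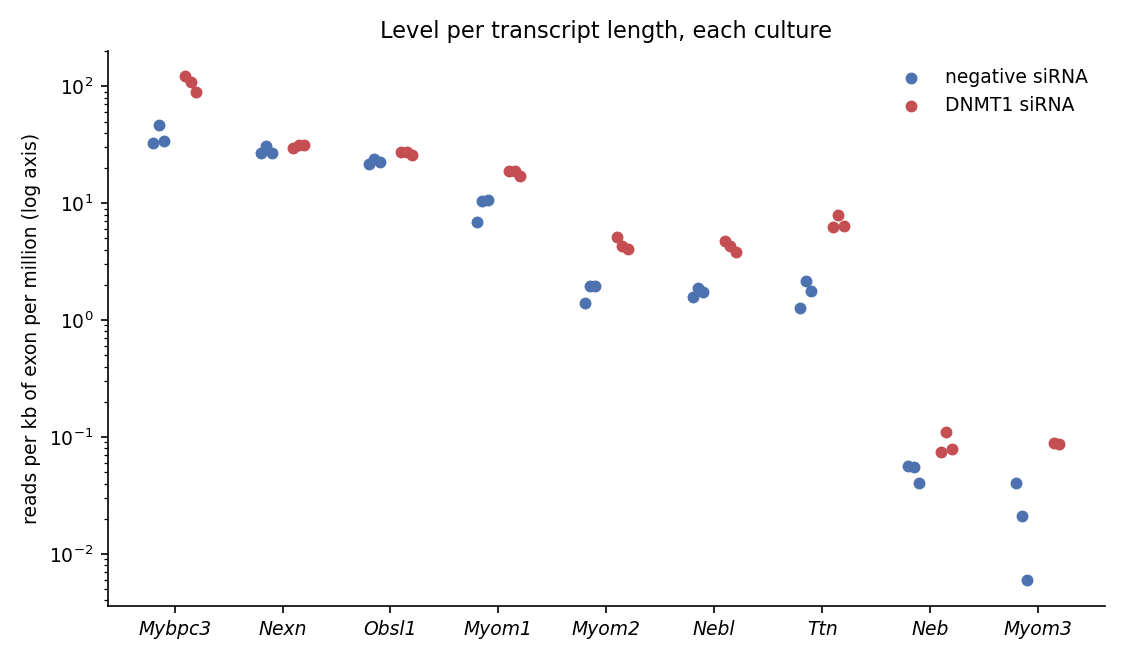
Reads per 1000000 effective reads and per kb of merged exon (log axis) for the 9 genes in each of the 3 cultures per group (blue, negative siRNA; red, DNMT1 siRNA), ordered by the negative siRNA mean. Mybpc3 leads in both groups, Ttn lies level with Myom2 and Nebl in blue and above them in red, and the value of 0 for Myom3 in DNMT1 siRNA replicate 1 cannot be drawn on this axis.

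Genes that work with these proteins were read from 4 lists. Of 18 partners of titin and the M-band, 16 were tested and 7 were called higher, none lower, beside 4.26% of all genes called higher, and their median log2FC was 0.65. After scaling to the 11 cardiomyocyte markers none of them was called higher and 5 were called lower, beside 97 and 13306 of all 15470 tested genes. The largest change was in Tcap, the telethonin that caps titin at the Z-disc, with 22.8, 62.7 and 59.1 normalized counts with negative siRNA and 164.9, 142.8 and 140.7 with DNMT1 siRNA (log2FC 1.65, SE 0.34, adjusted p = 0.0198). Actn2, the Z-disc actinin, had a log2FC of 1.25 (adjusted p = 0.00473). Cmya5, or myospryn, had a log2FC of 1.19 (adjusted p = 0.00338). Smyd1, a methyltransferase needed for myofibril assembly, had 1.11 (adjusted p = 0.00379). Fhl1 (log2 fold change -0.32, adjusted p = 0.0249) and Sqstm1 (-0.26, adjusted p = 0.0447) were below 0 at an FDR under 0.05, but short of 1.5-fold.

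The relatives with immunoglobulin domains were led by Mybpc2, the myosin-binding protein C of fast skeletal muscle, and Mypn, or myopalladin, which ties Z-disc proteins together. Of 11 listed, 7 were tested, 3 were called higher and none lower, beside 4.26% of all genes called higher, and the median log2FC was 0.85. After scaling to the 11 cardiomyocyte markers 2 were called higher and 3 lower, beside 97 and 13306 of all 15470 tested genes. Mybpc2 went from 12.7 ± 6.33 to 54.3 ± 13.8 normalized counts (n = 3 each), giving a log2FC of 2.10 (adjusted p = 0.0124). Mypn went from 41.0 ± 7.87 to 170.6 ± 32.9, giving a log2FC of 2.07 (adjusted p = 0.00156). Mylk3, the cardiac myosin light chain kinase, had 1.35 (adjusted p = 0.00151). Palld, the broadly expressed palladin, was at -0.07 (adjusted p = 0.813). Mylk (0.42, adjusted p = 0.018) and Speg (0.35, adjusted p = 0.0408) were above 0 and passed the FDR limit alone.

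Among 15 nebulin-repeat and thin-filament length genes, 14 were tested and 4 were called higher, none lower, with a median log2FC of 0.37 (4.26% of all genes were called higher). After scaling to the 11 cardiomyocyte markers these 4 calls were lost and 8 genes were called lower. Of all 15470 tested genes, 97 were called higher and 13306 lower on that scale. Lmod2, the leiomodin that lengthens cardiac thin filaments, had a log2FC of 1.69 (SE 0.17, adjusted p = 0.00125). Tmod1, which caps their pointed ends, had 1.56 (adjusted p = 0.00359), and Nrap, a nebulin-repeat protein of assembling myofibrils, 1.52 (adjusted p = 0.00199). Lmod3 had 1.27 (adjusted p = 0.0117). The smooth muscle leiomodin Lmod1 was at -0.61 (adjusted p = 0.0529) and Lasp1, a nebulin relative of non-muscle cells, at -0.05 (adjusted p = 0.752).

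Of 12 splicing regulators reported to act on titin or other muscle transcripts, all were tested and 1 was called higher and none lower, beside 4.26% and 2.23% of all genes, and the median log2FC was -0.08. After scaling to the 11 cardiomyocyte markers none was called higher and 10 were called lower, beside 97 and 13306 of all 15470 tested genes. The gene called higher in the main fit was Rbm20, the RNA-binding protein that represses titin exons. It had 583, 547 and 519 normalized counts with negative siRNA and 1104, 1045 and 996 with DNMT1 siRNA, without overlap. The mean went from 549.7 ± 32.2 to 1048 ± 53.9 (n = 3 each), giving a log2FC of 0.93 (SE 0.08, adjusted p = 0.000816). Celf2 (0.29, adjusted p = 0.0313) and Rbfox2 (-0.27, adjusted p = 0.0452) passed the FDR limit alone. Which titin exons were used was not analysed here, while the study lists Ttn among its genes with differential exon usage after knockdown.

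**Figure D5:**
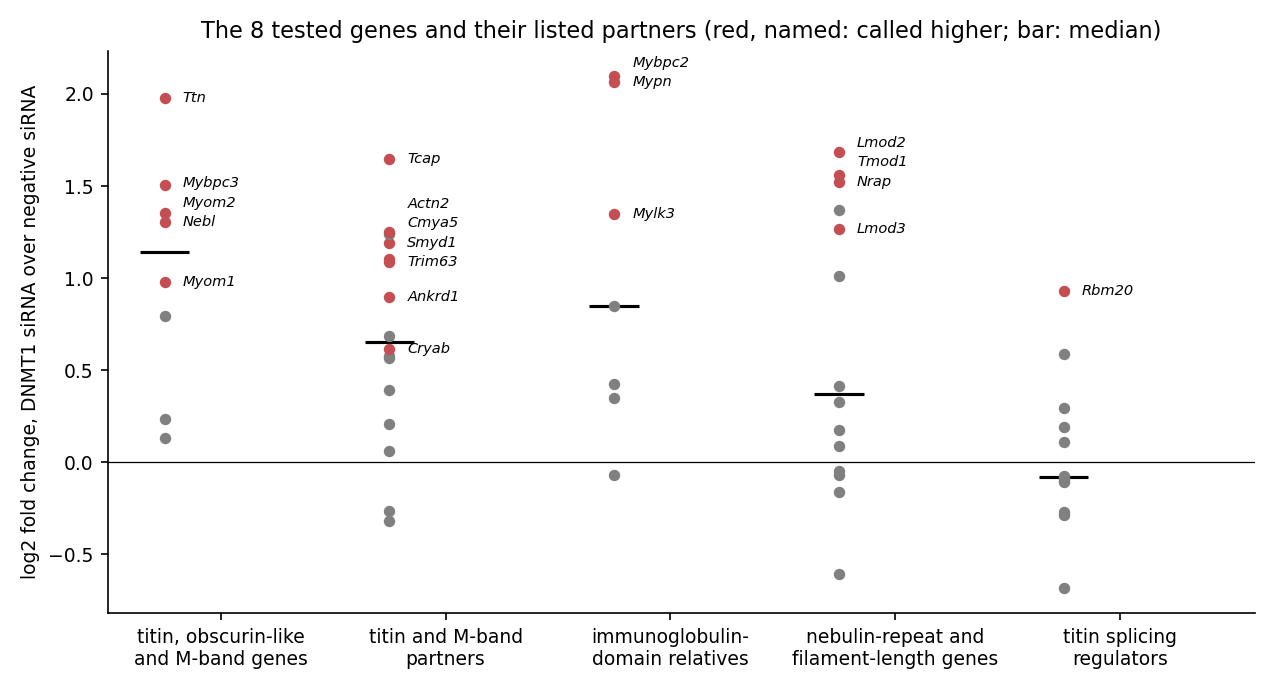
Log2 fold change of the 8 tested genes and of the tested genes of 4 partner lists, 1 point per gene (red and named, called higher; grey, not called) with the median as a black bar. The medians are 1.14, 0.65, 0.85, 0.37 and -0.08 from left to right, and Rbm20 is the called gene among the titin splicing regulators.

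Genes with a pattern like that of Ttn were ranked by the root mean square difference of log2 CPM, centred on the negative siRNA mean, over the 6 samples. Of 12661 genes with a mean log2 CPM of at least 1, the closest were Mir6236 (0.194, listed as a microRNA gene), Pak6 (0.196, a protein kinase), Npr1 (0.216, the receptor of natriuretic peptides), Coq8a (0.234, a factor of coenzyme Q synthesis) and Art3 (0.244, an ADP-ribosyltransferase relative). Their log2 fold changes ranged from 1.77 to 2.16. In 4 of these 5 and in Ttn, negative siRNA replicate 1 was the lowest and replicate 2 the highest of its group, while in Mir6236 replicate 3 was the highest. The 5 genes were picked by their closeness to Ttn over these same 6 samples. Their like fold changes and replicate order follow from that choice and are not a separate result.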

How the data were processed

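RNA-Seq was available for 3 negative siRNA and 3 DNMT1 siRNA samples, grouped by their titles. Poly(A) RNA was sequenced with a kit that does not keep strand. Per the labels and the study's methods, the authors cleaned the reads with FastQC, mapped them to mm10 with TopHat2 and counted them with HTSeq on the Ensembl GRCm38 annotation. The deposited values are raw counts per gene, with reads at multiple sites, ambiguous reads and reads on no exon listed apart. The versions of these tools and the strand setting were not given in the sources used here.

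The counts of 43629 genes were tested in edgeR 4.0.16 (R 4.3.3) with filterByExpr (minimum count 10, total 15), TMM normalization and the quasi-likelihood F-test, without a block. The number of reads on genes limits precision. The intervals include the spread between the cultures of a group, while the floors cover counting error only. Replicates with the same number did not deviate together (r = 0.01, -0.02 and 0.03), so numbers were not taken as pairs. No 2 libraries of the same group agreed within sampling noise, and pairs across the groups were not compared. Positions and merged exon lengths came from the GENCODE vM21 annotation (GRCm38). Ratios used counts plus 0.5 per length and the two-sided exact permutation test. The steps were tested on simulated data.

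The 9 genes and all lists were chosen with earlier results of these data known. Named were the 9 genes, Dnmt1, up to 4 called genes per list by size of change and the 5 genes closest to Ttn. Other list genes were named after their values were seen. Alternatives were the edgeR exact test, DESeq2 1.42.0, RLE, scaling to 3 or 11 cardiomyocyte genes, other filters, no fold limit, removal of a length trend, a replicate block and leaving out each sample. Exon usage and promoter methylation were not analysed here.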

Additional observations from a re-analysis of the deposited data

Results flagged for a closer look

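Reads outside annotated exons are not used in any comparison of genes. They made up 29.3% ± 4.23 of the assigned, ambiguous and unassigned unique reads in the DNMT1 siRNA samples and 16.4% ± 1.58 in the negative siRNA samples (SD, n = 3 each), and the ranges of 24.4% to 31.95% and 14.6% to 17.5% did not overlap. Ambiguous reads, which lie on more than 1 gene, rose beside them from 3.62% ± 0.0341 to 6.15% ± 0.175 (SD, n = 3 each). All 3 DNMT1 siRNA libraries were above the 3 control libraries in both measures. Their part in the values of the 9 genes was not tested.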

How the results depend on the processing

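The 5 calls among the 9 genes were kept in number under 15 of 16 alternatives, leave-one-out included (5 higher and 0 lower in each of the 6). Under the exception, scaling to 11 cardiomyocyte markers, which was chosen after seeing the data, 1 gene was called higher and 2 lower, with log2 fold changes of 0.37 (Mybpc3), 0.22 (Myom2), 0.17 (Nebl), -0.14 (Myom1), -0.34 (Neb), -0.90 (Obsl1) and -0.99 (Nexn). That scaling called 97 genes higher and 13306 lower over all genes. It called 0 titin partners, 0 nebulin-list genes, 0 splicing regulators and 2 immunoglobulin relatives higher and 5 titin partners, 3 immunoglobulin relatives, 8 nebulin-list genes and 10 splicing regulators lower. Scaling to Actc1, Tnnt2 and Tpm1 gave 373 higher and 1592 lower over all genes and 1 lower call each in the titin partners, the nebulin list and the splicing regulators, with Obsl1 at -0.0452 and Nexn at -0.14. Both shift the median of all genes down by construction.

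Without the filter 994 genes were called higher and 701 lower, with 5 immunoglobulin relatives higher and 1 nebulin-list gene and 1 splicing regulator lower. Without the fold limit the counts were 1054 and 874, with 5 immunoglobulin relatives and 2 splicing regulators higher and 2 titin partners and 1 splicing regulator lower. The edgeR exact test and DESeq2 each called 1 nebulin-list gene lower. Leaving out 1 sample gave 255 to 823 genes higher and 112 to 472 lower over all genes. The low ends of 255 and 112 came without DNMT1 siRNA replicate 2, and without replicate 1 or 3 of that group the counts were 316 and 146 or 314 and 145. The same step gave 5 to 10 titin partners, 2 to 3 immunoglobulin relatives, 3 to 5 nebulin-list genes and 1 to 2 splicing regulators called higher (2 without negative siRNA replicate 2), and 0 to 1 nebulin-list genes called lower (1 without negative siRNA replicate 1). The log2 ratio of Myom3 to Myom1 ran from -0.97 to 1.20, with 0.50 without negative siRNA replicate 1 and 1.20 without DNMT1 siRNA replicate 1.

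With a replicate block the 5 genes stayed called (adjusted p from 0.00164 for Ttn to 0.0170 for Myom1), and the block changed no other call among the 9 genes. Blocked permutations of the ratios cannot go below 0.25. Low counts limit Neb and Myom3, with at most 56 and 9 in any sample.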

Other observations

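The 4 immunoglobulin-domain relatives that failed the filter on low counts were nearly undetected in the control cultures. Mybpc1, the slow skeletal form of myosin-binding protein C, was at 0, 0 and 2.3 normalized counts with negative siRNA and at 0, 14.6 and 4.9 with DNMT1 siRNA. Igfn1, an immunoglobulin-domain protein of the skeletal Z-disc, was at 0, 0.7 and 1.6 and at 1.3, 11.7 and 11.4. Myot, or myotilin, was at 0 in all 3 negative siRNA cultures and at 0, 2.9 and 4.9 with DNMT1 siRNA. Mybph, a relative of myosin-binding protein C, was at 0.6, 0 and 0.8 and at 1.3, 2.9 and 3.3. In Mybpc1, Igfn1 and Myot DNMT1 siRNA replicate 1 was within the range of the control cultures, and in Mybph it was above it. Replicates 2 and 3 were above that range in all 4. A level of 3 counts equals 1.75, 2.07 and 2.33 normalized counts in the negative siRNA cultures and 4.02, 4.37 and 4.91 in the DNMT1 siRNA cultures. The same read count thus gives a higher value in the smaller DNMT1 siRNA libraries. All values of Mybph and Myot were at or below that level, so their order between groups does not show a gain. With the filter in place these genes had no test.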
